A study of Mus musculus with 12 samples.

Results

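Lungs of mice given house dust mite extract were compared with lungs of mice given the same kind of extract together with RNase III, an enzyme that cuts double-stranded RNA. The comparison rests on 4 of the 12 libraries of the series. Libraries 3 and 4 came from D.f. extract without RNase III and libraries 5 and 6 from D.f. extract with RNase III, as the sample titles give them. Libraries 1 and 2, from PBS controls of the same set, showed the baseline and added to the estimate of the spread. All 6 libraries were of whole lung from wild-type B6 mice aged 6 to 8 weeks, 14 to 16 h after treatment. The other 6 libraries of the series, from wild-type mice and from mice lacking both TLR3 and MAVS, entered 1 alternative fit only. No group received PBS with RNase III, so an effect of the enzyme on the lung cannot be told apart from an effect of cutting RNA in the extract. The labels do not say how long the enzyme acted or whether it was inactivated. Nor do they say whether the libraries of a group came from separate animals, so the p-values measure only the spread between these libraries.

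Double-stranded RNA is a ligand of Toll-like receptor 3 in endosomes and of RIG-I and MDA5 in the cytosol, which signal through the adaptors TRIF and MAVS. Both routes activate IRF3, IRF7 and NF-kB and induce interferons, and interferons act through Janus kinases and STAT and IRF factors on a large set of interferon-stimulated genes. Dust mite extract also holds proteases, lipids and bacterial products that are known to act on airway epithelium by other routes.

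Total reads assigned to genes were 17754518 and 22391644 in the PBS libraries, 25714074 and 22949244 without RNase III, and 18142427 and 18515394 with it. Levels are CPM, the reads of a gene relative to all assigned reads of the library scaled by edgeR's TMM factor, and log2 fold changes (± SE) are with RNase III minus without. A count of 0 allows up to 3 reads, or 0.119 to 0.166 CPM, counting error only. Lung markers were abundant in all 6 libraries: Scgb1a1, the main club cell secretion, lay between 11840 and 24280 CPM and Sftpc, a surfactant protein of alveolar type 2 cells, between 2473 and 7332 CPM. The libraries also differed in genes of cardiac muscle, which the sheath of pulmonary veins expresses too. Summed over the 22 genes of a cardiac muscle list, of which 20 were tested, levels were 333 and 3048 CPM with PBS. They were 1068 and 2440 CPM without RNase III, and 561 and 465 CPM with it.

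Of 17165 genes tested, 1246 were called at an edgeR adjusted p below 0.05 (7.26%). With RNase III 833 genes were lower (4.85%) and 413 higher (2.41%), and the median log2 fold change of all genes was -0.0024. The changes were unequal in size: 237 genes fell and 26 rose by 4-fold or more, and 44 fell and 0 rose by 16-fold or more. The median called fall was 1.37 and the median called rise 0.89 on the log2 scale. Under upper-quartile scaling 43.8% of the calls were higher, against 33.1% with TMM. The number of calls depended on the libraries: it was 2874 without either PBS library, and 537, 359, 146 and 238 without library 3, 4, 5 and 6. The genes called in the same direction in all 6 of these fits numbered 137, of which 129 were lower and 8 higher with RNase III.

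**Figure D1:**
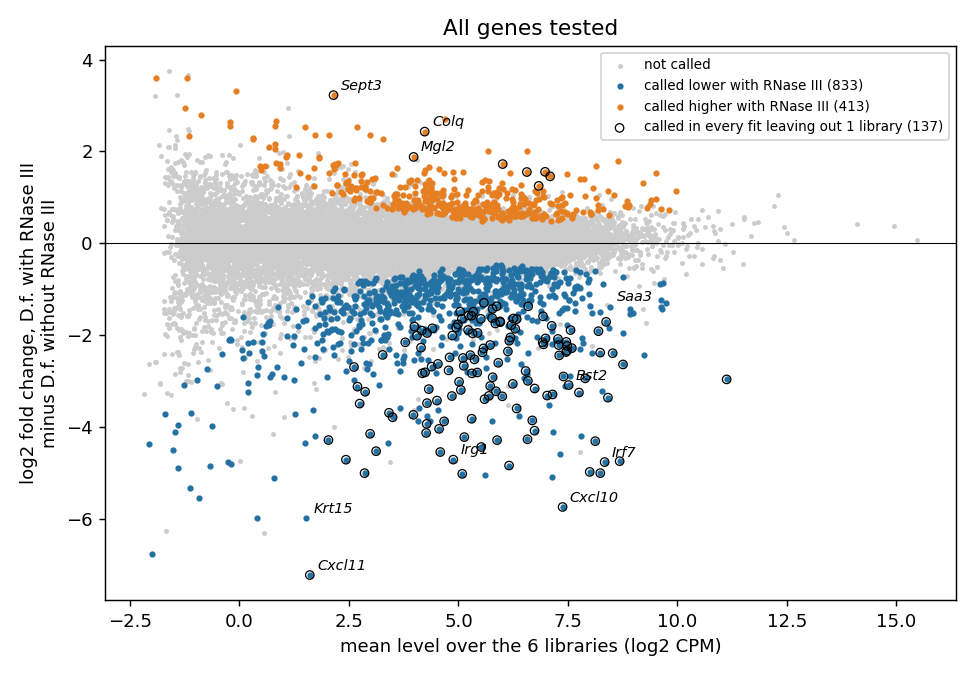
Log2 fold change (D.f. with RNase III minus D.f. without) against the mean level over the 6 libraries in log2 CPM, for all 17165 genes tested. Blue and orange points are the 833 lower and 413 higher calls, and circles mark the 137 genes called with each library left out in turn. The falls reach further from 0 than the rises.

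The list with the lowest median was that of the ligands of Cxcr3 and their receptor. The ligands are chemokines that draw activated T cells and NK cells into tissue. In brackets after the count of a list stand the median log2 fold change of its tested members and the count in each fit that left out 1 library. Of the 4 tested genes of this list 3 fell (median -5.39, and 4, 4, 3, 3, 3 and 3 with libraries 1 to 6 left out in turn). Cxcl10 stood at 440.5 and 533 CPM without RNase III and 8.64 and 9.46 CPM with it, against 3.59 and 2.62 CPM in the PBS lungs. Its libraries with RNase III thus lay far below those without and still above PBS, and the log2 fold change was -5.75 ± 0.20 (edgeR adjusted p = 0.000173), a 53.7-fold fall. Cxcl9 went from 88.3 and 108 CPM to 3.08 and 2.94 CPM (-5.03 ± 0.29, edgeR adjusted p = 0.000449), with PBS at 1.05 and 0.362 CPM. Cxcl11 (fitted log2 fold change -7.23 ± 0.61) had 6.78 and 11.3 CPM without RNase III and 1 read in each library with it. The ratio of its reads, 431 against 2, was 165 after scaling, with a counting interval of 45.3 to 1370 (95%, exact). Counting intervals given here leave out the spread between libraries. The 3 genes are neighbours in NCBIM37 (mm9), Cxcl9 at chr5:92750357-92757105, Cxcl10 at chr5:92775664-92777915 and Cxcl11 at chr5:92788570-92794511. Cxcr3 itself, at 2.62 and 3.27 CPM without and 1.16 and 1.5 CPM with RNase III, did not pass the test (log2 fold change -1.14 ± 0.33, edgeR adjusted p = 0.0893). Cxcl10, Cxcl9 and Cxcl11 were called with each library left out in turn.

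Promoter sequences are printed for the first 3 of the largest falls whose promoter held a short motif shared by many interferon-stimulated promoters. The presence of the motif in these 3 thus follows from how they were chosen. The sequences are the 250 bases before the start of each gene in RefSeq (GRCm38.p6), read 5′ to 3′ on the strand of the gene, which is the minus strand for all 3. Capitals mark a match to GAAANNGAA, the core of an interferon-stimulated response element, on either strand. Rsad2 encodes viperin, an antiviral enzyme, and is described further on. The windows are chr5:92348890-92349139 for Cxcl10, chr5:92328080-92328329 for Cxcl9 and chr12:26456453-26456702 for Rsad2.
Cxcl10: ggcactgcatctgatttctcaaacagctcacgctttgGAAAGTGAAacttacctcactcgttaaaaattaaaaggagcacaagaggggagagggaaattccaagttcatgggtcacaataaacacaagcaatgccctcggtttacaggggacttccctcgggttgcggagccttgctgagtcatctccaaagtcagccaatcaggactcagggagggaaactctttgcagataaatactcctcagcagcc
Cxcl9: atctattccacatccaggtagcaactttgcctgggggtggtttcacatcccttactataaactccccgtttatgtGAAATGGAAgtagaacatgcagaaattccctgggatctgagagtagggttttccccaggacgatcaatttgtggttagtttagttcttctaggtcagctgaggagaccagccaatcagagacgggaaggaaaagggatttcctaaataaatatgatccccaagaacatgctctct
Rsad2: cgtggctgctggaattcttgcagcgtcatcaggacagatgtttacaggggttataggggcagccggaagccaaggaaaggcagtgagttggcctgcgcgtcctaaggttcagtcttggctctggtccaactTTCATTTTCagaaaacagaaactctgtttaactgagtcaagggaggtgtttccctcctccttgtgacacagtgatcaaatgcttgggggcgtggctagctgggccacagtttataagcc
The centres of the matches lay 209, 171 and 115 bases before the start, and that of Rsad2 is on the opposite strand.

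RefSeq promoter windows of 300 bases (250 before to 50 after a start) were matched to 12205 of the 17165 genes tested, 15432 windows in all. GAAANNGAA was in 7.41% of them, in 6.76% of the windows of genes not called and in 6.19% of those of genes called higher. Among the genes called lower the share was 19.8%, and it grew with the size of the fall: 16.6% of windows for falls of 2-fold to under 4-fold, 31.1% for 4-fold to under 8-fold and 47.9% for 8-fold or more. TTCNNNGAA, the core of the gamma-activated site of interferon gamma target genes, was in 12.2% of windows of lower genes against 7.03% of all tested. GGNNTTTCC, a kappa B core, was in 8.83% against 6.14%, and in 21.9% of windows of genes that fell 8-fold or more. In all 32851 windows of the table the shares were 8.56%, 8.3% and 5.82%. Both strands were searched, windows of 1 gene can overlap and the motifs can overlap each other, so these shares are a description without a test. For the 15 largest rises and falls only the 250 bases before the start were searched, so their counts cannot be set against these shares. Among the 15 largest rises, 10 had a window in the table and 0 of these held GAAANNGAA in those bases. Among the 15 largest falls 12 had a window and 6 held it there, namely Cxcl10, Cxcl9, Rsad2, Oas3, Apol9a and Isg15. Those of Oasl1, Trim30c, Slfn4, Irf7, Ifit2 and Irg1 did not hold it in the 250 bases searched.

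The interferons themselves were close to the limit of detection at this time. Ifnb1 had 7 and 10 reads without RNase III (0.277 and 0.435 CPM) and 0 and 1 with it, a ratio of 13 with a counting interval of 2.04 to 543 (95%, exact), and was too low to be tested. Ifna1 had 0 reads in all 6 libraries, and 10 of the 11 interferon genes of the list were too low to be tested. Ifng, the interferon of T and NK cells, went from 1.19 and 1.78 CPM to 0.275 and 0.16 CPM (-2.74 ± 0.53, edgeR adjusted p = 0.0245). Of 9 genes for interferon receptors and Janus kinases, only Jak2 fell, from 156 and 180.0 CPM to 99.4 and 104 CPM (-0.72 ± 0.13). Ifnar2, a chain of the type I interferon receptor, was at 106 and 107 CPM without and 77 and 78.8 CPM with RNase III and missed the threshold (edgeR adjusted p = 0.0517). Ifnar1, the other chain, was at 114 and 111 CPM without and 97.7 and 104 CPM with it. Jak2 lost its call without library 4, 5 or 6 (edgeR adjusted p up to 0.253), and Ifng without library 3, 4, 5 or 6 (adjusted p up to 0.218).

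Most sensors of RNA and DNA fell. Of a list of 13 tested sensors, which also held the sensors of bacterial products Tlr2, Tlr4 and Nod1, 11 were lower (median -2.06, and 12, 12, 11, 7, 5 and 6 with libraries 1 to 6 left out in turn). Zbp1, a sensor of Z-form nucleic acid, had the largest change of them, from 255 and 332 CPM to 18.8 and 15.8 CPM (-4.09 ± 0.27, edgeR adjusted p = 0.000613), while PBS was at 11.9 and 6.96 CPM. Ifih1, which encodes MDA5, went from 345 and 438 CPM to 78.2 and 75.8 CPM (-2.35 ± 0.17, edgeR adjusted p = 0.000742). Ddx58, which encodes RIG-I, went from 415 and 524 CPM to 116 and 109.8 CPM (-2.06 ± 0.21). Both libraries with RNase III lay within the PBS range of Ddx58, 118 and 80.0 CPM. Dhx58, their regulator LGP2, fell by more (-3.40 ± 0.32). Tlr3 fell from 98.6 and 113 CPM to 41.2 and 40.2 CPM (-1.38 ± 0.19, edgeR adjusted p = 0.00717), with PBS at 44.9 and 30.4 CPM. Tlr9, the receptor for CpG DNA, fell from 35.1 and 61 CPM to 5.73 and 4.87 CPM (-3.18 ± 0.28), below both PBS libraries. Tlr2 (-1.49 ± 0.15) and Nod1 (-0.82 ± 0.16) were lower as well, and Aim2, a sensor of cytosolic DNA, was not called (-1.01, edgeR adjusted p = 0.0652). Of the Toll-like receptor family, counted after its values were seen, 6 of 12 tested genes fell, while Tlr4, the endotoxin receptor, had a log2 fold change of -0.083 and was not called. Ddx58 lost its call without library 5 (edgeR adjusted p = 0.0509), and Tlr3 and Nod1 without library 4, 5 or 6 (adjusted p up to 0.31). Zbp1, Ifih1, Dhx58, Tlr9 and Tlr2 were called in all 6 of these fits.

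The adaptors below these receptors changed less. Mavs, the adaptor of RIG-I and MDA5, was at 28.2 and 29.7 CPM without and 31.3 and 30.8 CPM with RNase III (log2 fold change 0.10 ± 0.15), and Ticam1, which encodes TRIF, at 25.7 and 29.4 and 19.6 and 22.7 CPM. Neither passed the test. Of the 12 adaptors and kinases tested, 5 fell (median -0.39, and 5, 5, 4, 2, 0 and 3 with libraries 1 to 6 left out in turn). These were Myd88, from 101 and 116 CPM to 43.2 and 43.7 CPM (-1.32 ± 0.13), Tmem173, which encodes STING (-1.34 ± 0.21), the kinase gene Ikbke (-1.30 ± 0.20), the RIG-I ubiquitin ligase gene Trim25 (-1.30 ± 0.21) and Unc93b1, the chaperone of endosomal Toll-like receptors (-1.14 ± 0.13). Myd88 lost its call without library 5 (edgeR adjusted p = 0.0519), Ikbke without library 4 or 5 (adjusted p up to 0.128), Unc93b1 without library 5 or 6 (adjusted p up to 0.0668), Tmem173 without library 3, 4 or 5 (adjusted p up to 0.118), and Trim25 without library 4, 5 or 6 (adjusted p up to 0.138).

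Among transcription factors of the interferon response, 12 of 17 fell (median -1.06, and 13, 13, 10, 8, 2 and 4 with libraries 1 to 6 left out in turn). Irf7, the factor that amplifies type I interferon, went furthest: 812 and 997 CPM without RNase III, 36.8 and 29.5 CPM with it and 49.7 and 17.4 CPM with PBS (-4.77 ± 0.48, edgeR adjusted p = 0.00221). Stat2, which carries the type I interferon signal to the nucleus, went from 442 and 739 CPM to 115 and 109.5 CPM (-2.40 ± 0.30). Its partner Irf9 fell by less (-1.23 ± 0.13). Nlrc5, the activator of class I genes, fell from 307 and 605 CPM to 59.2 and 63.4 CPM (-2.90 ± 0.30), and Irf1 from 302 and 405 CPM to 126 and 128 CPM (-1.48 ± 0.18). Irf3 (-0.12), which is activated by phosphorylation, and Stat6 (-0.32), the factor downstream of Il4 and Il13, were not called. Nlrc5 lost its call without library 5 (edgeR adjusted p = 0.0515), and Stat2, Irf9 and Irf1 without library 5 or 6 (adjusted p up to 0.0831). Irf7 was called in all 6 of these fits.

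Feedback inhibitors of the pathway fell with it, 6 of 8 being lower (median -1.39, and 6, 6, 4, 4, 1 and 2 with libraries 1 to 6 left out in turn). Usp18, which removes Isg15 from proteins and blocks the interferon receptor, stood at 166 and 269 CPM without and 15.9 and 16.3 CPM with RNase III (-3.76 ± 0.45, edgeR adjusted p = 0.00404). Socs1 fell from 21 and 39.6 CPM to 4.18 and 6.31 CPM (-2.53 ± 0.34), and Trim30a from 467 and 703 CPM to 78.5 and 73.4 CPM (-2.94 ± 0.23). Socs1 lost its call without library 5 (edgeR adjusted p = 0.0831), and Usp18 without library 5 or 6 (adjusted p up to 0.0671). Trim30a was called in all 6 of these fits.

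**Figure D2:**
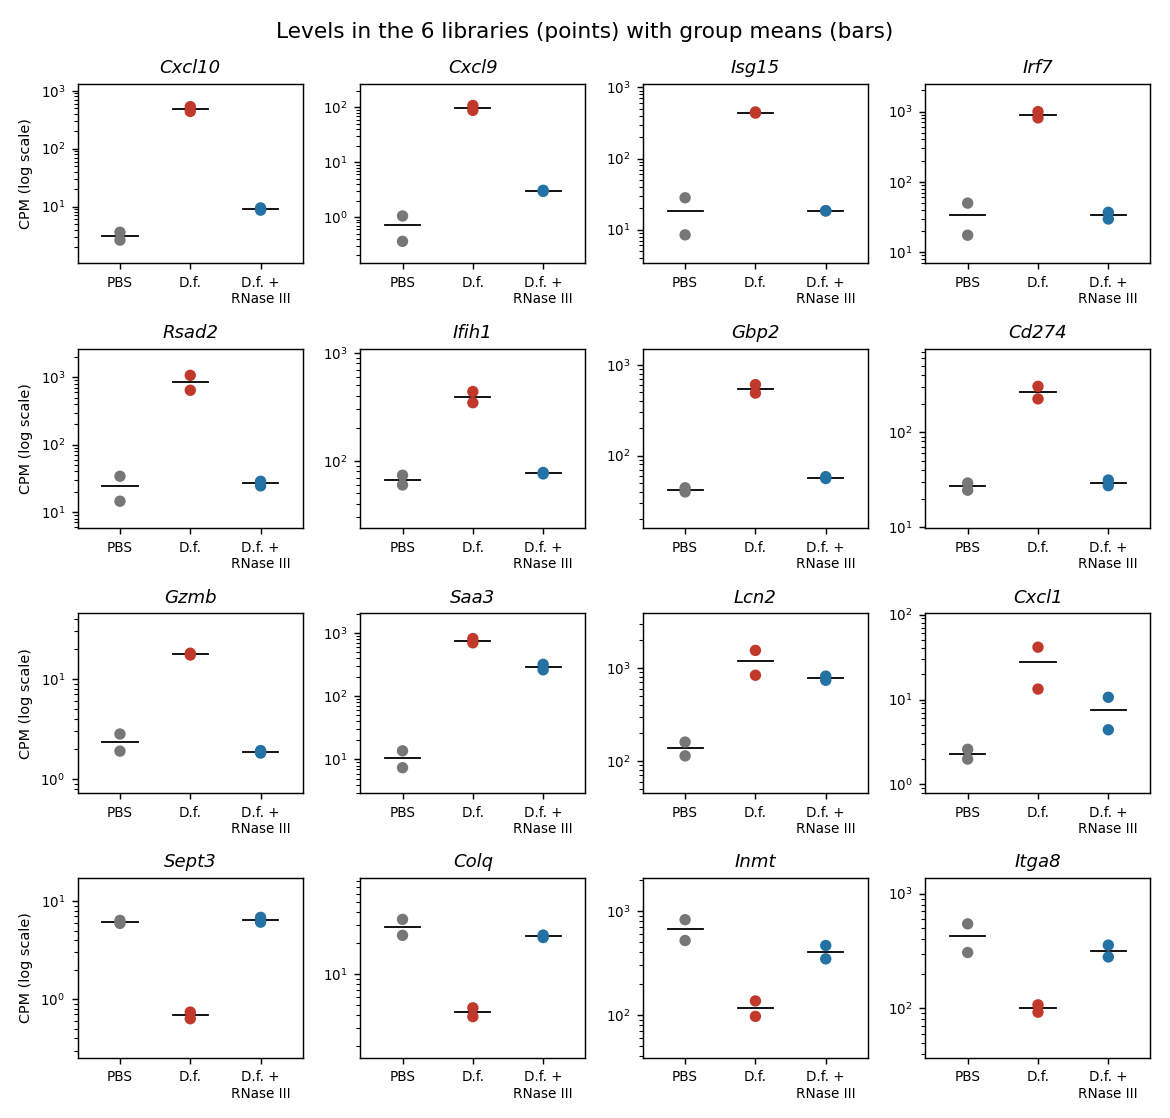
Levels of 16 genes in CPM on a log axis, 1 point per library, with bars at group means. For the first 9 genes, Cxcl10 to Gzmb, the red points (D.f. without RNase III) lie far above both other groups. Saa3 and Lcn2 with RNase III lie between PBS and untreated extract, and for Sept3, Colq, Inmt and Itga8 the red points lie below both other groups.

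The antiviral effectors, proteins that block steps of virus growth, fell almost throughout: 19 of 20 fell (median -2.56, and 20, 20, 17, 13, 7 and 9 with libraries 1 to 6 left out in turn). Summed over the list, levels were 7209 and 9263 CPM without RNase III and 1256 and 1200 CPM with it, against 1263 and 962 CPM with PBS. Rsad2 went from 642 and 1069 CPM to 24.4 and 28.6 CPM (-5.01 ± 0.46, edgeR adjusted p = 0.00154). Ifit2, which binds viral RNA, went from 1031 and 1263 CPM to 44.5 and 40.8 CPM (-4.75 ± 0.32, edgeR adjusted p = 0.000629). Bst2, which tethers virus particles to the cell surface, had a smaller fall and a smaller standard error: 479.8 and 419 CPM against 55.1 and 50.3 CPM (-3.09 ± 0.14, edgeR adjusted p = 0.000273). Mx1 spread more widely. It stood at 228 and 558 CPM without RNase III, 11.8 and 11.3 CPM with it and 32.4 and 4.34 CPM with PBS (-5.09 ± 0.90, edgeR adjusted p = 0.0174). Mx2, a homolog of Mx1, went from 84.5 and 195 CPM to 9.63 and 9.3 CPM (-3.88 ± 0.78). Ifi27l2a was the member not called (-2.30). Mx1 lost its call without library 4, 5 or 6 or in the robust edgeR fit (edgeR adjusted p up to 0.183), and Mx2 without library 3, 4, 5 or 6 or in the robust edgeR fit (adjusted p up to 0.244). Rsad2, Ifit2 and Bst2 were called in all 6 of these fits.

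Genes of the oligoadenylate synthetase system, which senses double-stranded RNA, fell in 7 of 9 tested genes (median -3.60, and 8, 8, 7, 6, 4 and 6 with libraries 1 to 6 left out in turn). Oas3 was at 172 and 234 CPM without and 7.76 and 6.36 CPM with RNase III (-4.84 ± 0.21, edgeR adjusted p = 0.000221), still above 3.81 and 3.62 CPM in the PBS lungs. Oas2 went from 159 and 272 CPM to 18.6 and 16.9 CPM (-3.60 ± 0.32), Oas1a from 42.2 and 61.1 CPM to 3.69 and 3.05 CPM (-3.94 ± 0.28) and Oasl1 from 103 and 169.8 CPM to 3.58 and 4.6 CPM (-5.06 ± 0.56). Genes of the Oas1 cluster are near-identical, and reads with several alignments were set aside, so the split between them is uncertain. Oasl1 lost its call without library 5 (edgeR adjusted p = 0.0611). Oas3, Oas2 and Oas1a were called in all 6 of these fits.

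Isg15, a ubiquitin-like protein attached to others during the interferon response, had 436 and 453 CPM without RNase III, 18.6 and 18.3 CPM with it and 28.1 and 8.46 CPM with PBS (-4.59 ± 0.50, edgeR adjusted p = 0.0029). The enzymes that attach it fell as well: Uba7, the activating enzyme, from 217 and 361 CPM to 60.3 and 66.4 CPM (-2.19 ± 0.26), Ube2l6, the conjugating enzyme, from 96.5 and 109.8 CPM to 17.2 and 22.4 CPM (-2.38 ± 0.19), and the ligase Herc6 from 335 and 512 CPM to 47.3 and 50.7 CPM (-3.11 ± 0.35). With Usp18, all 5 tested genes of the Isg15 list were lower (median -3.11, and 5, 5, 5, 5, 1 and 3 with libraries 1 to 6 left out in turn). Isg15 and Herc6 lost their call without library 5 (edgeR adjusted p up to 0.0601), and Uba7 without library 5 or 6 (adjusted p up to 0.0722). Ube2l6 was called in all 6 of these fits.

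Guanylate-binding proteins and immunity-related GTPases, which attack vacuoles that hold microbes, fell in all 18 genes tested (median -3.06, and 18, 18, 17, 15, 12 and 10 with libraries 1 to 6 left out in turn, and 11 in the fit over all 12 libraries). Gbp2 was at 489 and 606 CPM without RNase III and 58.7 and 55.9 CPM with it (-3.25 ± 0.16, edgeR adjusted p = 0.000279). Gbp5 went from 208 and 343 CPM to 20.1 and 17.8 CPM (-3.86 ± 0.27), and the vacuolar GTPase gene Iigp1 from 638 and 944 CPM to 99.8 and 70.8 CPM (-3.21 ± 0.43). Ifi47 had 184 and 255 CPM and 32 and 31.8 CPM (-2.79 ± 0.19). In 12 of the 18 genes both libraries with RNase III were still above both PBS libraries, a relation found in 16.4% of all genes tested. Gbp2 (PBS 44.2 and 39.9 CPM) and Gbp5 (PBS 16 and 12.7 CPM) were among them. Gbp and Tgtp genes have close copies, and the share of each is uncertain. Iigp1 lost its call without library 4, 5 or 6 (edgeR adjusted p up to 0.0727). Gbp2, Gbp5 and Ifi47 were called in all 6 of these fits.

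Schlafen genes, growth regulators of lymphoid and myeloid cells, were lower in 8 of 8 (median -2.58, and 8, 8, 7, 6, 4 and 4 with libraries 1 to 6 left out in turn). Slfn4, a gene of myeloid cells, changed most: 584 and 891 CPM without RNase III, 20.4 and 26.1 CPM with it and 3.59 and 8.01 CPM with PBS (-4.98 ± 0.39, edgeR adjusted p = 0.000943). Slfn1 went from 71.5 and 89.7 CPM to 10.7 and 9.2 CPM (-3.02 ± 0.17). Of 8 PARP-linked genes, 7 were lower (median -2.18, and 8, 8, 7, 7, 3 and 5 with libraries 1 to 6 left out in turn). Parp9 and its partner Dtx3l, which are transcribed from a shared promoter, fell alike, Parp9 from 226 and 298 CPM to 59.5 and 54.2 CPM (-2.21 ± 0.19) and Dtx3l from 328 and 439.9 CPM to 82.4 and 80.3 CPM (-2.24 ± 0.18). Slfn4, Slfn1, Parp9 and Dtx3l were called with each library left out in turn.

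**Figure D3:**
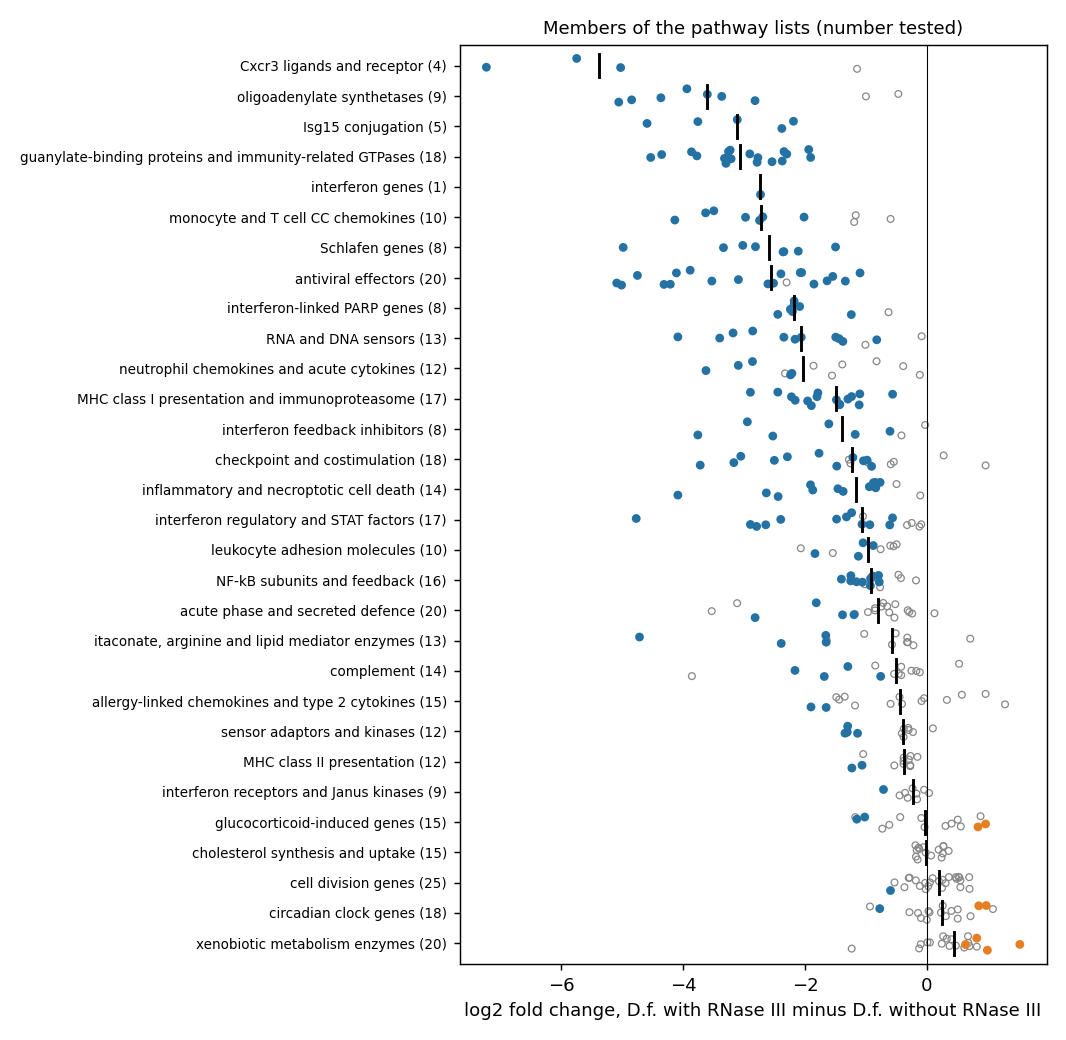
Log2 fold changes (D.f. with RNase III minus D.f. without) of the tested members of 30 pathway lists, 1 point per gene, ordered by list median (black bar). Filled blue points are called lower, filled orange points called higher and open points not called. The list of Cxcr3 ligands and receptor has the lowest median. Lists of interferon-stimulated genes and of monocyte and T cell chemokines are among those furthest to the left, and xenobiotic metabolism enzymes have the highest median.

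Genes that load peptides on MHC class I for CD8 T cells fell in 17 of 17 cases (median -1.48, and 17, 17, 12, 12, 7 and 9 with libraries 1 to 6 left out in turn). The 3 catalytic subunits of the immunoproteasome fell: Psmb8 from 269 and 239 CPM to 58.3 and 55.4 CPM (-2.16 ± 0.14), Psmb9 from 78.6 and 93.2 CPM to 21.9 and 22.5 CPM (-1.96 ± 0.13) and Psmb10 from 136 and 147 CPM to 38.2 and 43.7 CPM (-1.79 ± 0.14). They were the only called genes among 38 tested genes of 20S and 26S proteasome subunits, a family chosen after the values were seen. Of these 38, 36 had a negative log2 fold change (median -0.38). The class I list holds further proteasome genes, which also fell and are outside this count. Tap2, part of the peptide transporter, went from 252 and 281 CPM to 72.5 and 80.4 CPM (-1.80 ± 0.13, edgeR adjusted p = 0.00072), and the nonclassical class I gene H2-T23 from 309.9 and 357 CPM to 75.4 and 67.8 CPM (-2.22 ± 0.14). The abundant heavy chain gene H2-K1 (-1.43 ± 0.23) and B2m (-1.29 ± 0.25) fell by less. B2m lost its call without library 3, 5 or 6 (edgeR adjusted p up to 0.195), and H2-K1 without library 3, 4, 5 or 6 (adjusted p up to 0.145). Psmb8, Psmb9, Psmb10, Tap2 and H2-T23 were called in all 6 of these fits.

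MHC class II genes, which serve CD4 T cells, were called lower in 2 of 12 (median -0.38, and 4, 4, 2, 1, 0 and 0 with libraries 1 to 6 left out in turn). The difference between the lists was not tested. The 2 were Ciita, the class II activator, from 87.9 and 121 CPM to 49.9 and 49.9 CPM (-1.06 ± 0.16), and Ctss, the protease that trims the invariant chain, from 284 and 307 CPM to 136 and 116 CPM (-1.23 ± 0.14). H2-Aa, a class II chain, was at 268 and 207 CPM without and 198 and 196 CPM with RNase III and was not called (edgeR adjusted p = 0.365). Ctss lost its call without library 5 or 6 (edgeR adjusted p up to 0.0617), and Ciita without library 4, 5 or 6 or in the fit over all 12 libraries (adjusted p up to 0.181).

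Chemokines for monocytes and T cells fell in 7 of 10 tested genes of a list that also held receptors (median -2.72, and 9, 9, 5, 7, 4 and 4 with libraries 1 to 6 left out in turn). Ccl7 stood at 55.6 and 51.2 CPM without RNase III, 2.26 and 3.8 CPM with it and 1.27 and 1.04 CPM with PBS (-4.14 ± 0.25, edgeR adjusted p = 0.000492). Ccl2, the main Ccr2 ligand, went from 76.8 and 46.5 CPM to 3.69 and 6.26 CPM (-3.63 ± 0.49), Ccl4 from 22.3 and 13.9 CPM to 1.49 and 1.71 CPM (-3.50 ± 0.30) and Ccl5 from 56.9 and 36.8 CPM to 8.09 and 6.42 CPM (-2.69 ± 0.26). Of the libraries without RNase III, library 3 was the higher for Ccl2, Ccl4 and Ccl5, and library 4 for Cxcl10, Mx1 and Irf7. Ccl2 lost its call without library 3, 5 or 6 (edgeR adjusted p up to 0.0945). Ccl7, Ccl4 and Ccl5 were called in all 6 of these fits.

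Neutrophil chemokines and acute cytokines were less sharply separated: 5 of 12 fell (median -2.04, and 7, 7, 2, 5, 0 and 1 with libraries 1 to 6 left out in turn). Tnf fell from 20.4 and 17.1 CPM to 2.31 and 2.83 CPM, which overlapped the 4.47 and 2.44 CPM of the PBS lungs (-2.86 ± 0.31, edgeR adjusted p = 0.00288). Il1b fell from 103 and 47.3 CPM to 12.9 and 19 CPM (-2.24 ± 0.37) and stayed above 6.08 and 7.33 CPM with PBS. Il6 went from 9.87 and 7.01 CPM to 0.771 and 0.588 CPM (-3.62 ± 0.58), and Cxcl2 from 38.9 and 8.32 CPM to 2.2 and 3.31 CPM (-3.09 ± 0.71). Cxcl1, a Cxcr2 ligand, had 41.3 and 13.3 CPM without and 4.41 and 10.6 CPM with RNase III. That difference did not pass the test (-1.86 ± 0.57, edgeR adjusted p = 0.107), and both libraries with RNase III lay above PBS at 2.6 and 1.99 CPM. In 8 of the 12 genes both libraries with RNase III were above both PBS libraries (16.4% of all genes tested). Tnf lost its call without library 5 (edgeR adjusted p = 0.0571), Il1b without library 5 or 6 (adjusted p up to 0.152), Cxcl2 without library 3, 5 or 6, with limma-voom or in the robust edgeR fit (adjusted p up to 0.336), and Il6 without library 3, 4, 5 or 6 (adjusted p up to 0.138).

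Acute phase and secreted defence genes often stayed above PBS. Both libraries with RNase III lay above both PBS libraries in 11 of 20 genes (16.4% of all genes tested), while 4 were called lower than without RNase III (median -0.80, and 9, 9, 1, 2, 1 and 1 with libraries 1 to 6 left out in turn). Saa3, a local serum amyloid, stood at 13.7 and 7.42 CPM with PBS, 813 and 697 CPM without RNase III and 261 and 318 CPM with it (-1.38 ± 0.26, edgeR adjusted p = 0.0237). Lcn2, an iron-withholding protein, was at 113 and 159.6 CPM with PBS, 1543 and 834 CPM without and 736 and 817 CPM with RNase III, and was not called (edgeR adjusted p = 0.28). Saa1 had 0.442 and 0.317 CPM with PBS, 11.3 and 11.5 CPM without and 9.3 and 4.6 CPM with RNase III, also not called (edgeR adjusted p = 0.26), and its reads may be shared with the near-identical Saa2. Il1rn, the antagonist of the interleukin 1 receptor, did fall, from 112 and 102 CPM to 14.9 and 15.3 CPM (-2.82 ± 0.14, edgeR adjusted p = 0.000279), as did the protease inhibitor gene Timp1, from 172 and 132 CPM to 35.4 and 51.3 CPM (-1.81 ± 0.34). Saa3 and Timp1 lost their call without library 3, 4, 5 or 6 or in the fit over all 12 libraries (edgeR adjusted p up to 0.392). Il1rn was called in all 6 of these fits.

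In the allergy-linked list 2 of 15 tested genes fell (median -0.45), beside 4.85% of all genes tested called lower. The log2 fold change was negative in 11 of the 15. These were Ccl11, the eosinophil chemokine eotaxin, from 8.68 and 6.71 CPM to 1.71 and 2.41 CPM (-1.90 ± 0.30), and Arg1, from 9.83 and 7.05 CPM to 2.75 and 2.62 CPM (-1.65 ± 0.26). Il33, an epithelial alarmin, had a log2 fold change of -0.41 ± 0.32 and was not called, and Il4, Il5, Il13 and Il25 were too low to be tested. Arg1 lost its call without library 3, 5 or 6 or in the fit over all 12 libraries (edgeR adjusted p up to 0.186), and Ccl11 without library 3, 4, 5 or 6 or in the fit over all 12 libraries (adjusted p up to 0.149).

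Enzymes that make mediators in activated macrophages followed the falling genes in 4 of 13 cases (median -0.57, and 6, 6, 2, 3, 1 and 1 with libraries 1 to 6 left out in turn). Irg1, which makes itaconate, went from 94.4 and 75.3 CPM to 2.81 and 3.64 CPM (-4.72 ± 0.25, edgeR adjusted p = 0.000351), with PBS at 0.221 and 0.543 CPM. Ch25h, which makes 25-hydroxycholesterol, went from 45.9 and 27.7 CPM to 6.66 and 7.38 CPM (-2.39 ± 0.29). Nos2, the inducible nitric oxide synthase, was at 8.68 and 13.1 CPM without and 9.86 and 8.82 CPM with RNase III, and these overlapped. Ch25h lost its call without library 5 or 6 (edgeR adjusted p up to 0.0716). Irg1 was called in all 6 of these fits.

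Cell death genes fell in 12 of 14 (median -1.16, and 13, 13, 9, 6, 2 and 4 with libraries 1 to 6 left out in turn). Mlkl, the executioner of necroptosis, went from 69.2 and 104 CPM to 15.1 and 16.7 CPM (-2.44 ± 0.21, edgeR adjusted p = 0.00135), and Casp4 (caspase 11), which senses cytosolic endotoxin, from 62.4 and 67.5 CPM to 16.9 and 18.7 CPM (-1.87 ± 0.20). Among immune checkpoint and costimulation genes 11 of 18 fell (median -1.23, and 13, 13, 8, 4, 3 and 3 with libraries 1 to 6 left out in turn). Cd274, which encodes PD-L1, stood at 224 and 304 CPM without RNase III, 27.4 and 31.4 CPM with it and 29.3 and 24.6 CPM with PBS (-3.17 ± 0.19, edgeR adjusted p = 0.000492). Lgals9 fell from 419 and 404 CPM to 93.4 and 75 CPM (-2.29 ± 0.19), Il18bp, a decoy for interleukin 18, from 77.5 and 80.3 CPM to 12.3 and 15.6 CPM (-2.50 ± 0.15), and the tryptophan-degrading Ido1 from 4.12 and 8.19 CPM to 0.441 and 0.481 CPM (-3.72 ± 0.45). Casp4 lost its call without library 5 (edgeR adjusted p = 0.0564), and Ido1 without library 5 or 6 (adjusted p up to 0.0704). Mlkl, Cd274, Lgals9 and Il18bp were called in all 6 of these fits.

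Subunits and inhibitors of NF-kB fell by smaller steps, 10 of 16 being called (median -0.91, and 13, 13, 3, 5, 0 and 1 with libraries 1 to 6 left out in turn). Nfkbie, an inhibitor, went from 57.5 and 51.7 CPM to 20.8 and 25.2 CPM (-1.25 ± 0.15), and Birc3 from 121 and 112 CPM to 58.8 and 63.9 CPM (-0.92 ± 0.12). Nfkb1 was at 186 and 178 CPM without and 129 and 135 CPM with RNase III and missed the threshold (edgeR adjusted p = 0.0561). Complement genes were lower in 4 of 14 (median -0.50, and 6, 6, 0, 0, 0 and 0 with libraries 1 to 6 left out in turn), among them Cfb, from 3.01 and 3.35 CPM to 0.771 and 0.642 CPM (-2.16 ± 0.44). Nfkbie lost its call without library 5 (edgeR adjusted p = 0.0795), Birc3 without library 5 or 6 (adjusted p up to 0.12), and Cfb without library 3, 4, 5 or 6 (adjusted p up to 0.244).

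Markers of cytotoxic cells were lower with RNase III. In whole lung, fewer cells of a type and less RNA per cell cannot be told apart. Of 14 NK and cytotoxic markers 11 fell (median -1.58, and 12, 12, 5, 4, 2 and 2 with libraries 1 to 6 left out in turn). Gzmb, a granule protease, stood at 18.1 and 17.3 CPM without RNase III, 1.82 and 1.93 CPM with it and 2.82 and 1.9 CPM with PBS (-3.24 ± 0.25, edgeR adjusted p = 0.00091). Il2rb went from 29.2 and 36.3 CPM to 8.42 and 7.75 CPM (-2.02 ± 0.18) and Gzma from 29.6 and 26.1 CPM to 9.41 and 8.23 CPM (-1.66 ± 0.19), while the NK receptor gene Ncr1 changed by less (-1.33 ± 0.29). Gzma lost its call without library 5 or 6 (edgeR adjusted p up to 0.0531), and Ncr1 without library 3, 4, 5 or 6 or in the fit over all 12 libraries (adjusted p up to 0.293). Gzmb and Il2rb were called in all 6 of these fits.

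Lymphocyte markers showed smaller falls. Of 19 T cell markers 11 fell (median -1.16, and 17, 17, 0, 0, 0 and 0 with libraries 1 to 6 left out in turn), so that without any of libraries 3 to 6 none was called. Cd8a went from 10.6 and 12.6 CPM to 3.36 and 3.42 CPM (-1.77 ± 0.31), and Cd3e, at 9.39 and 10.3 CPM without and 3.52 and 5.24 CPM with RNase III, missed the threshold (edgeR adjusted p = 0.0542). Of 15 B cell markers 6 were lower (median -0.90, and 12, 12, 1, 1, 0 and 0 with libraries 1 to 6 left out in turn). Ighm, the heavy chain of IgM, stood at 107 and 83.4 CPM without RNase III, 37.1 and 38.5 CPM with it and 71.7 and 65.6 CPM with PBS (-1.33 ± 0.15, edgeR adjusted p = 0.00317). In 12 of the 15 B cell genes both libraries with RNase III were below both PBS libraries (16.5% of all genes tested). Ighm lost its call without library 5 or 6 (edgeR adjusted p up to 0.0686), and Cd8a without library 3, 4, 5 or 6 (adjusted p up to 0.177).

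Inflammatory monocyte markers split. Of 15 genes 8 fell (median -1.63, and 11, 11, 7, 7, 6 and 6 with libraries 1 to 6 left out in turn). Ly6c2 went from 59.4 and 69.1 CPM to 4.51 and 3.26 CPM (-4.05 ± 0.20, edgeR adjusted p = 0.000279), Plac8 from 229 and 237 CPM to 27.9 and 30.3 CPM (-3.0 ± 0.12) and Ms4a4c from 84.9 and 124 CPM to 8.59 and 6.15 CPM (-3.83 ± 0.25). Several of these genes are themselves induced by interferon. Ccr2, the receptor by which monocytes leave the bone marrow, was not called (-1.17). Neutrophil markers were called lower in 1 of 9 (median -0.88, and 2, 2, 0, 0, 0 and 0 with libraries 1 to 6 left out in turn), namely Csf3r (-1.05 ± 0.22). S100a8 lay at 23.3 and 8.01 CPM without and 10.2 and 16.4 CPM with RNase III, overlapping. Ly6g, a defining neutrophil marker, was at most at 0.11 CPM in any library, and the eosinophil peroxidase gene Epx had 0 reads in all 6. Csf3r lost its call without library 3, 4, 5 or 6 or in the fit over all 12 libraries (edgeR adjusted p up to 0.297). Ly6c2, Plac8 and Ms4a4c were called in all 6 of these fits.

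**Figure D4:**
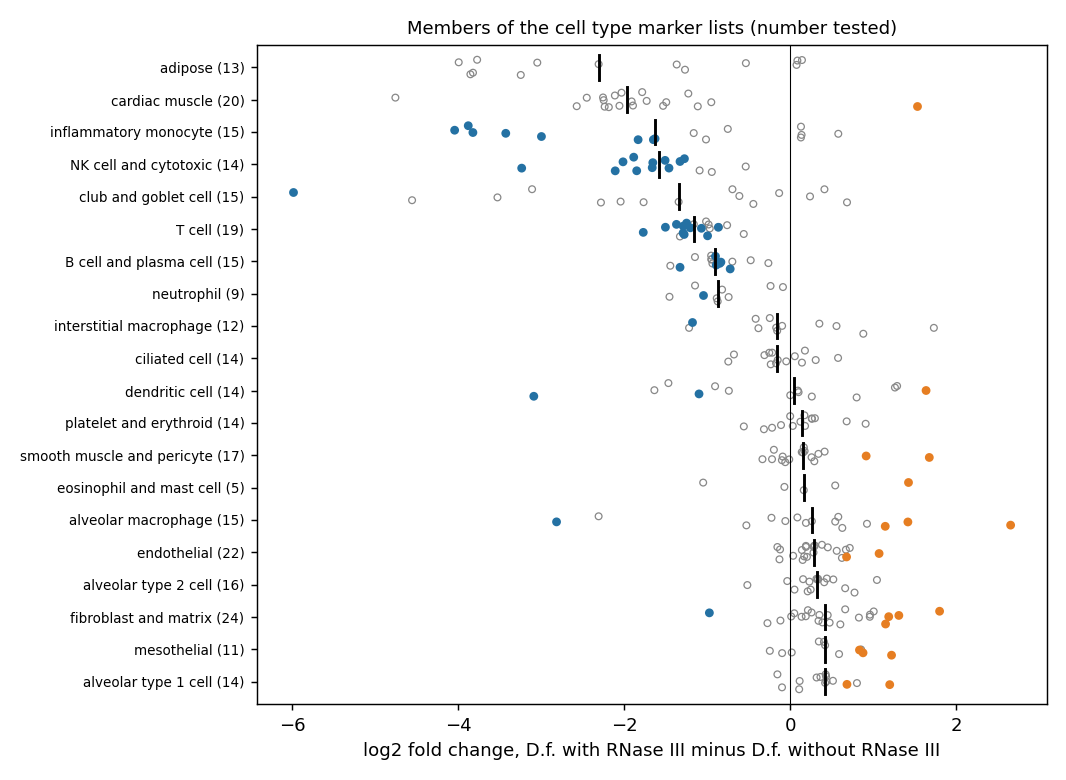
Log2 fold changes (D.f. with RNase III minus D.f. without) of the tested members of 20 cell type marker lists, 1 point per gene, ordered by list median (black bar). Filled blue and orange points are called lower and higher, open points not called. NK, T and B cell and monocyte markers hold most of the lower calls, while cardiac muscle and adipose markers lie to the left with 0 lower calls.

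Markers of resident macrophages moved in both directions. Mrc1, the mannose receptor, was at 65.2 and 44.1 CPM without RNase III, 133 and 109 CPM with it and 132 and 162 CPM with PBS (1.14 ± 0.21, edgeR adjusted p = 0.0214). Siglec5, the gene symbol used here for Siglec-F, rose from 5.59 and 2.74 CPM to 12.2 and 10.2 CPM (1.42 ± 0.34), and Fabp1 from 0.238 and 0.174 CPM to 1.93 and 0.749 CPM (2.65 ± 0.59). These were the 3 higher calls of 15 alveolar macrophage markers (median 0.26, and 3, 3, 3, 0, 0 and 1 with libraries 1 to 6 left out in turn), and Il1rn, described above, was the 1 lower call. Of 12 interstitial macrophage markers 1 fell and 0 rose (median -0.17, and 3, 3, 1, 0, 0 and 0 lower with libraries 1 to 6 left out in turn). Mgl2, a lectin of macrophages and dendritic cells, rose from 5.55 and 4.49 CPM to 18 and 19 CPM (1.88 ± 0.17, edgeR adjusted p = 0.00148), close to 24.2 and 23.2 CPM with PBS. Cd163, a scavenger receptor of interstitial macrophages, was at 1.23 and 2.83 CPM without and 7.05 and 6.36 CPM with RNase III but missed the threshold (edgeR adjusted p = 0.067). Fabp1 lost its call without library 3, 4 or 5 or with limma-voom (adjusted p up to 0.309), Mrc1 without library 4, 5 or 6 (adjusted p up to 0.202), and Siglec5 without library 4, 5 or 6, with RLE scaling or with the filter at a mean of 1 CPM (adjusted p up to 0.335). Mgl2 was called in all 6 of these fits.

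The 15 largest rises were below PBS without RNase III, and with it most overlapped the PBS libraries. Lrat, Hepacam2, Mgl2 and Inmt stayed below both PBS libraries with RNase III. Of all genes tested, 16.4% lay above and 16.5% below both PBS libraries with RNase III, so overlap is common among all genes too. Sept3, a septin, had 0.634 and 0.74 CPM without RNase III, 6.83 and 6.1 CPM with it and 6.35 and 5.92 CPM with PBS (3.23 ± 0.26, edgeR adjusted p = 0.0011). Colq, which anchors acetylcholinesterase, went from 4.72 and 3.88 CPM to 23.8 and 22.6 CPM (2.43 ± 0.22, edgeR adjusted p = 0.00148), with PBS at 33.8 and 23.7 CPM. Gria1, a glutamate receptor subunit, went from 3.81 and 5.44 CPM to 38 and 22.6 CPM (2.71 ± 0.35). Igfbp3, a binder of insulin-like growth factors, went from 18.5 and 12.9 CPM to 67.6 and 58.5 CPM (2.0 ± 0.26), and Lrat, which stores retinol, from 42.1 and 13.8 CPM to 109 and 116 CPM (2.0 ± 0.44). Gdf10, a member of the TGF-beta family, went from 0.991 and 1.83 CPM to 9.69 and 6.47 CPM (2.52 ± 0.38). With PBS, Gria1 was at 52.7 and 32.3 CPM and Igfbp3 at 91.3 and 56.9 CPM. Lrat was at 161.5 and 125.8 CPM and Gdf10 at 11.71 and 8.005 CPM with PBS. The largest rises also included Ano5, Bex2, Fcrls, Hepacam2, Zmat4 and Dgkb, each below 16 CPM in all libraries (2.54, 2.37, 2.36, 1.93, 1.92 and 1.87). Gria1 lost its call without library 3 (edgeR adjusted p = 0.0603), Gdf10 without library 3 or 5 (adjusted p up to 0.0982), Igfbp3 without library 4 or 5 (adjusted p up to 0.0647), Lrat without library 5 or 6, in the robust edgeR fit or in the fit over all 12 libraries (adjusted p up to 0.197), Bex2 without library 3, 4 or 5 or with limma-voom (adjusted p up to 0.184), Ano5 and Hepacam2 without library 3, 4, 5 or 6 (adjusted p up to 0.23), Zmat4 without library 3, 4, 5 or 6 or in the fit over all 12 libraries (adjusted p up to 0.289), and Fcrls and Dgkb without library 3, 4, 5 or 6 or with limma-voom (adjusted p up to 0.288). Sept3 and Colq were called in all 6 of these fits.

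Genes of fibroblasts and matrix rose in part. Of 24 fibroblast and matrix genes 4 rose and 1 fell (median 0.42, and 12, 12, 1, 0, 0 and 2 rising with libraries 1 to 6 left out in turn). Inmt, a methyltransferase abundant in lung, stood at 137 and 97.1 CPM without RNase III, 466 and 347 CPM with it and 825 and 520.3 CPM with PBS (1.80 ± 0.28, edgeR adjusted p = 0.0108). Npnt, which encodes nephronectin, went from 289.8 and 279.7 CPM to 824 and 585 CPM (1.31 ± 0.23), and its receptor subunit Itga8 from 107 and 92.2 CPM to 355 and 280.0 CPM (1.67 ± 0.28). Col1a1, the major fibrillar collagen, was at 559.8 and 778 CPM without and 742 and 639.5 CPM with RNase III and overlapped. Wnt2, a ligand of lung mesenchyme, rose from 7.05 and 5.22 CPM to 16.2 and 15.7 CPM (1.38 ± 0.21). Itga8 was listed with the smooth muscle and pericyte markers, and Wnt2 was in no list. Inmt lost its call without library 4 or 5 (edgeR adjusted p up to 0.109), Npnt without library 3, 4 or 5 (adjusted p up to 0.171), Wnt2 without library 4, 5 or 6 (adjusted p up to 0.102), and Itga8 without library 3, 4, 5 or 6 (adjusted p up to 0.136).

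Enzymes that clear foreign compounds were low in the lungs given untreated extract. Fmo2, the main lung flavin monooxygenase, was at 1183 and 932 CPM with PBS, 309.8 and 265 CPM without RNase III and 959 and 701 CPM with it (1.53 ± 0.21, edgeR adjusted p = 0.00655). Aox3, an aldehyde oxidase, went from 63.3 and 64.3 CPM to 132 and 122 CPM (1.0 ± 0.12) against 186 and 174 CPM with PBS. Of 20 enzymes tested 4 rose (median 0.44, and 8, 8, 2, 1, 0 and 2 with libraries 1 to 6 left out in turn). Both libraries with RNase III were below both PBS libraries in 12 of them (16.5% of all genes tested). Cyp2f2, a club cell cytochrome P450, was one of these, with 1204 and 1898 CPM with PBS, 571 and 494 CPM without and 828 and 882 CPM with RNase III, and was not called (edgeR adjusted p = 0.125). Aox3 lost its call without library 5 or in the fit over all 12 libraries (edgeR adjusted p up to 0.0783), and Fmo2 without library 4 or 5 (adjusted p up to 0.0795).

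Other lung cell types had few calls in number, beside 2.41% of all genes tested called higher. The shares that rose among endothelial, alveolar type 1, smooth muscle and mesothelial markers were above that. Endothelial markers rose in 2 of 22 (median 0.28, and 3, 4, 1, 0, 0 and 0 with libraries 1 to 6 left out in turn), Ednrb (1.07 ± 0.24) and Efnb2 (0.68 ± 0.14), while Pecam1 lay at 650.0 and 508 CPM without and 567 and 619 CPM with RNase III. Alveolar type 1 markers rose in 2 of 14 (median 0.42, and 3, 3, 0, 0, 0 and 0 with libraries 1 to 6 left out in turn) and smooth muscle and pericyte markers in 2 of 17 (median 0.15, and 3, 3, 0, 0, 0 and 0). Mesothelial markers rose in 3 of 11 (median 0.42, and 4, 4, 3, 0, 0 and 1), such as Upk1b from 11.4 and 9.58 CPM to 27.6 and 21.4 CPM (1.22 ± 0.18). No alveolar type 2 marker of 16, ciliated cell marker of 14 or platelet and erythroid marker of 14 was called by edgeR. At an unadjusted p below 0.05 edgeR had 6, 3 and 1 of them, DESeq2 called 2, 0 and 1, and limma-voom 0 of each. Sftpc was at 3609 and 2473 CPM without and 7314 and 5217 CPM with RNase III (edgeR adjusted p = 0.111). Upk1b lost its call without library 4 or 5 (edgeR adjusted p up to 0.121), and Ednrb and Efnb2 without library 3, 4, 5 or 6 (adjusted p up to 0.368).

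Genes of cardiac muscle, fat and large airways differed between libraries, partly along the groups. Of 20 cardiac muscle genes 0 were called lower (median -1.97, and 18, 18, 0, 0, 0 and 0 with libraries 1 to 6 left out in turn), and of 13 adipose genes 0 (median -2.31, and 8, 8, 0, 0, 0 and 0). Without either PBS library, whose cardiac levels lay far apart, 18 cardiac and 8 adipose genes were thus called lower with RNase III. With all 6 libraries, 1 cardiac and 4 adipose genes were lower at an unadjusted edgeR p below 0.05, and DESeq2 and limma-voom called 0 lower. edgeR, DESeq2 and limma-voom each called 1 cardiac gene higher, Myh7, a second heart myosin, from 7.17 and 4.66 CPM to 17.8 and 16.4 CPM (1.52 ± 0.22). Myh6, the heart myosin heavy chain, was at 43.5 and 618 CPM with PBS, 227 and 532 CPM without RNase III and 90.3 and 70.6 CPM with it, and Adipoq at 0 and 14.8, 3.81 and 7.66 and 0.385 and 0.321 CPM in the same order. Krt15, a keratin of basal cells and the fall next in size to Cxcl11, had 269 reads without RNase III and 3 with it. The ratio was 68.6 with a counting interval of 23.2 to 335 (95%, exact), which leaves out the spread between libraries. The PBS libraries had 13 and 116 reads of Krt15, and its log2 fold change ran from -9.885 to -5.062 with each library left out in turn. Bpifa1, Bpifb1, Reg3g, Scgb3a1 and Muc5b, genes of large airways and their glands chosen here after their values were seen, summed to 12.4 and 1489 CPM with PBS, 1377 and 1411 CPM without RNase III and 399 and 200.3 CPM with it. None of the 5 was called with all 6 libraries, and all 5 were called lower without either PBS library (edgeR adjusted p up to 0.0232). Their part in the fall of Krt15 (-5.99 ± 1.20) was not tested. Myh7 lost its call without library 5 or 6 or in the fit over all 12 libraries (edgeR adjusted p up to 0.0976), and Krt15 without library 3, 4, 5 or 6 or with limma-voom (adjusted p up to 0.228).

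**Figure D5:**
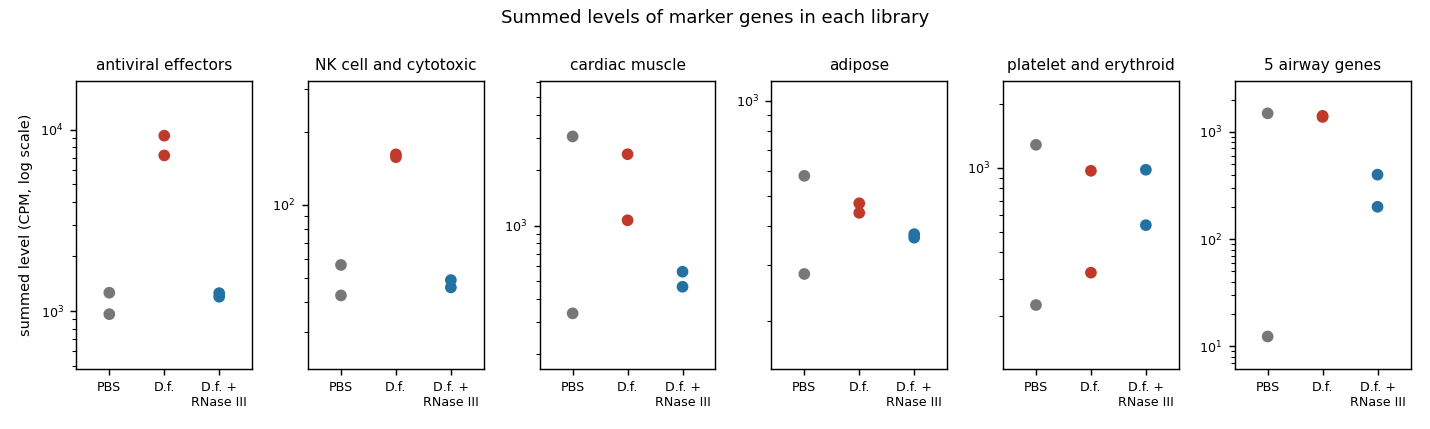
Summed CPM (log axis) of antiviral effectors, NK and cytotoxic markers, cardiac muscle, adipose, platelet and erythroid markers and 5 airway genes, 1 point per library. The first 2 panels separate the libraries without RNase III from all others. In the cardiac and airway panels the PBS libraries differ from each other by more than the groups do.

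Beyond the lists, gene families chosen after the values were seen were counted. Their counts stand beside 4.85% of all genes tested called lower and 2.41% called higher, and were not repeated with libraries left out. Of 9 genes counted as the Ifi200 family, Aim2 included, 7 fell, among them Ifi204 from 106 and 149.6 CPM to 7.05 and 4.71 CPM (-4.44 ± 0.28). Of 10 Ms4a genes 6 fell, including Ms4a6d from 50.2 and 57 CPM to 8.15 and 9.14 CPM (-2.63 ± 0.15). Of 9 Apol genes 5 fell, with Apol9a going from 14.1 and 16.2 CPM to 0.495 and 0.642 CPM (-4.72 ± 0.42). Among 52 Trim genes, ubiquitin ligases with roles in immunity, 12 fell and 1 rose, and Trim30c went from 15 and 25.6 CPM to 0.606 and 0.642 CPM (-5.01 ± 0.46). Interleukin receptor genes fell in 11 of 29, such as Il21r from 27.1 and 33.3 CPM to 8.09 and 9.04 CPM (-1.82 ± 0.18). Collagen genes rose in 6 of 37. Other families held few calls or none. Of 77 cytosolic ribosomal protein genes and 36 mitochondrial complex I genes, 0 were called. Zfp genes had 3 lower and 3 higher of 322, and Slc genes 13 lower and 13 higher of 243. Not all families counted are reported here. The Ifi200, Apol and Trim30 genes have close copies, so their shares are uncertain. Ifi204, Ms4a6d, Apol9a, Trim30c and Il21r were called with each library left out in turn.

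Of the 137 genes called with each library left out, 72 were in no list. Examples are Rnf213, a giant ubiquitin ligase, at 4254 and 6559 CPM without RNase III, 713 and 669 CPM with it and 714 and 485 CPM with PBS (-2.97 ± 0.28, edgeR adjusted p = 0.0018). Lgals3bp, a secreted glycoprotein, went from 674 and 673 CPM to 131 and 126 CPM (-2.38 ± 0.13), and Apod, a lipocalin, from 82 and 110.2 CPM to 5.29 and 4.97 CPM (-4.23 ± 0.34). Siglec1, a sialic acid receptor of macrophages, went from 85 and 113 CPM to 23.4 and 16.9 CPM (-2.29 ± 0.21) and Nampt, an enzyme of NAD synthesis, from 203 and 246 CPM to 74.7 and 74.2 CPM (-1.59 ± 0.15). The 8 rises of this kind were Sept3, Colq, Mgl2, Scn3a, Abca8a, Cpm, Tspan2 and the unnamed model A430107O13Rik. Cpm, which encodes carboxypeptidase M of alveolar type 1 cells and macrophages, rose from 75.2 and 61.1 CPM to 202 and 172 CPM (1.46 ± 0.15), and Scn3a, a sodium channel subunit, from 26.2 and 22.1 CPM to 85.8 and 73.8 CPM (1.72 ± 0.17). These genes were chosen after their values were seen. Rnf213, Lgals3bp, Apod, Siglec1, Nampt, Cpm and Scn3a were called with each library left out in turn.

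The lists below ranged from 0 calls to 4 of 10 genes, beside 7.26% of all genes tested (4.85% lower and 2.41% higher). Of 25 cell division genes 1 was lower (median 0.20, and 1, 1, 0, 0, 0 and 0 with libraries 1 to 6 left out in turn), the replication helicase subunit Mcm5 (-0.60 ± 0.14), and Mki67 lay at 39 and 44.6 CPM without and 62.8 and 40.8 CPM with RNase III. Cholesterol synthesis and uptake genes had 0 calls of 15 with edgeR, DESeq2 or limma-voom, and 0 at an unadjusted p below 0.05. Clock genes had 1 lower and 2 higher of 18 (median 0.25, and 5, 5, 0, 1, 0 and 0 higher with libraries 1 to 6 left out in turn), the rises being Tef (0.98 ± 0.18) and Hlf (0.86 ± 0.17). Glucocorticoid-induced genes had 2 lower and 2 higher of 15. Leukocyte adhesion genes were lower in 4 of 10 (median -0.96, and 8, 8, 2, 4, 1 and 1). Tef lost its call without library 3, 5 or 6 (edgeR adjusted p up to 0.187), Hlf without library 3, 4, 5 or 6 (adjusted p up to 0.272), and Mcm5 without library 3, 4, 5 or 6, with upper-quartile scaling or in the fit over all 12 libraries (adjusted p up to 0.368).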

How the data were processed

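RNA-seq of whole mouse lung was measured in 12 libraries, of which 6 enter here: PBS, D.f. extract without RNase III and D.f. extract with RNase III, 2 libraries each. The deposited values are whole-number read counts per gene. Per the submitters' processing notes, the authors used bcl2fastq, TopHat2 2.0.8b and HTSeq with the mm9 genome. For HTSeq, the version, annotation and strand setting were not given in the sources used here. Antisense and overlapping genes are therefore uncertain. Members of the H2, Ifi200, Oas1, Slfn, Gbp and Ly6 families and the Saa1 and Saa2 pair have close copies and may share or lose reads. Of all counts in the count tables, between 23.5% and 28.3% stood in rows that name a gene, and the other rows were left out of the tests. The row for alignments that are not unique held 40.2% to 44.6%. Whether a read with several alignments entered it more than once is not stated, so these are not shares of reads.

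Counts were tested with edgeR 4.0.16 (R 4.3.3): TMM scaling, edgeR's default expression filter by group (17165 of 33924 genes), a quasi-likelihood fit of 3 group means over 6 libraries with 3 residual degrees of freedom, and Benjamini-Hochberg adjustment over all genes tested. The script was tested on simulated data. Genes named are the 15 largest called falls and rises with a mean of at least 1 log2 CPM and non-overlapping libraries, unnamed models passed over, and for each list the 4 members with the smallest p and the first 2 as listed. Genes named outside that rule, chosen after their values were seen, are Apod, Lgals3bp, Nampt, Rnf213, Siglec1, Cpm, Scn3a, Abca8a, Tspan2, Ifi204, Ms4a6d, Il21r, Wnt2, B2m, H2-K1, Iigp1, Psmb10, Stat2, Trim25, Ccr2, Ifi27l2a, Il33, Irf3, Stat6, Lcn2, Tlr2, Tlr4, Nod1, Aim2, Il4, Il5, Il13, Il25, A430107O13Rik and the 5 airway genes. Some genes that the rule takes are not reported here. The comparison and its lists were chosen with earlier results of these data known. Within a group the counts of paired libraries differed by 46.6 (PBS), 27.7 (without RNase III) and 7.33 (with it) times the chi-square that sampling alone gives, so they differed by more than counting noise; whether they came from separate animals is not stated. Alternatives were DESeq2 1.42.0, limma 3.58.1 (voom), other scalings and filters, other sets of libraries and leaving out each library.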

Additional observations from a re-analysis of the deposited data

How the results depend on the processing

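Of the 1246 calls, 1079 to 1246 recurred in the same direction under each alternative that kept libraries 3 to 6, and 146 to 515 with 1 of these 4 left out; no call changed sign. The counts themselves moved more. DESeq2 called 1887 genes, of which 754 were higher with RNase III, and the 4 libraries without PBS gave 2869 (1653 lower, 1216 higher). Leaving out each library in turn gave 146 to 2874 calls, 137 to 1676 lower and 9 to 1199 higher. These fits assume that a library left alone in its group varies like the others. Upper-quartile scaling gave 752 lower and 587 higher, against 833 and 413. The median log2 fold change of all genes was 0.069 with upper-quartile scaling and -0.0024 with TMM. Some list medians were nearer to 0 than this shift, so their sign is not settled. These include cholesterol synthesis and uptake (-0.017) and glucocorticoid-induced genes (-0.036). Among the genes named, those whose sign changed were not called with all 6 libraries. With each library left out in turn their log2 fold changes ran for Col1a1 from -0.17 to 0.30, Mki67 from -0.035 to 0.59, Nos2 from -0.48 to 0.10, Pecam1 from -0.14 to 0.23, S100a8 from -0.81 to 0.74 and Tlr4 from -0.20 to 0.041. No paired analysis was possible because the groups compared share no replicate number. With 3 residual degrees of freedom, single genes whose libraries differ widely, such as Cxcl1 and Mx1, were tested with little precision.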
